A study of Mus musculus with 23 samples.

Results

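The genes described here are Ubd, which encodes the ubiquitin-like modifier FAT10, and 9 genes of the immunoproteasome and of peptide loading onto MHC class I: Psmb8, Psmb9, Psmb10, Psme1, Psme2, Tap1, Tap2, Tapbp and Nlrc5. The 10 genes were chosen by name, in part because the Ubd value was higher after faecal microbiota transplantation (FMT) than after saline in both sets of mice, so every comparison with the saline group is given here as a description without a test. All 10 were among the 19215 entries of the deposited table, and all 10 were among the 11337 genes tested, whose level averaged 1 FPKM or more over the 23 libraries (FPKM, fragments per kilobase of transcript, scaled to library size).

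FAT10 is conjugated to other proteins by the activating enzyme Uba6 and the conjugating enzyme Ube2z and sends them to the proteasome. Interferon gamma and TNF raise its gene, and they also raise the subunits Psmb8, Psmb9 and Psmb10, which replace the constitutive catalytic subunits Psmb5, Psmb6 and Psmb7 and so turn the proteasome into the immunoproteasome. Psme1 and Psme2 form the PA28 activator ring that caps the proteasome. Tap1 and Tap2 together make the transporter that carries peptides into the endoplasmic reticulum, Tapbp (tapasin) holds empty class I molecules next to that transporter, and Nlrc5 is the transactivator of the class I genes and of several of these partners. In the intestine the whole system is known from epithelial cells that respond to interferon.

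The mice were males of ICR, an outbred stock, and all of them had been injected with busulfan at 40 mg/kg at 3 weeks of age. RNA of the small intestine was sequenced. The Sa mice received saline and the others received, daily for 1 week, the gut content of donors dosed with alginate oligosaccharide (AOS) at 0 mg/kg (Con-FMT, IMC in the labels), 10 mg/kg (A10-FMT, IMA10) or 100 mg/kg (A100-FMT, IMA100). The donors' material was pooled within a donor group, so the mice of a group shared an inoculum. The labels split the mice by the codes I1 and I2, called set 1 and set 2 here, and the sources used here do not say what the codes stand for, so a set may differ in more than 1 respect. Each of the 8 groups had 3 libraries, apart from Sa of set 1 with 2.

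Epithelial genes dominated the tissue: the 8 listed epithelial markers averaged 82.9 to 1531 FPKM, led by Fabp2, a fatty acid binding protein of enterocytes. The 5 listed smooth muscle markers stayed below 1 FPKM in every library, as did 5 of 6 markers of B and plasma cells, 4 of 7 myeloid markers and 3 of 5 markers of M cells. Of 10 T and NK cell markers, Gzma was the highest at 48.9 FPKM on average, whereas Cd4 and Cd2 stayed below 1 FPKM. Replicate 3 of Sa in set 1 stood apart: its log2 values correlated with those of the other libraries at r = 0.944 to 0.965 across the tested genes, against 0.968 to 0.991 among the others. That library's title and description name different columns of the table. The column matching the title served here, and results that rest on it are also given without it or with the other column. The read number of each library was not used here, so the depth behind each value is unknown and no counting error is given.

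Promoter windows (RefSeq, GRCm38.p6, 250 bases before and 50 bases after the transcript start) were held for 8 of the 10 genes. They were searched on both strands for an interferon response pattern (2 GAAA copies separated by 2 bases), for the interferon gamma pattern TTCNNNGAA and for the NF-kB motif. These patterns occurred in 3.44%, 8.30% and 8.46% of all 32851 windows, respectively. The windows of Ubd, Psmb8 and Psmb9 are shown because the values of Ubd led to the choice of the genes and because Psmb8 and Psmb9 are the immunoproteasome subunits whose levels differed most between mice, and capitals mark a match. Ubd lies on the plus strand (window chr17:37193642-37193941), and its window held an NF-kB match that begins 15 bases before the start. Psmb8 lies on the plus strand (window chr17:34197945-34198244), and its window held a TTCNNNGAA match that begins 97 bases before the start. Psmb9 lies on the minus strand (window chr17:34187281-34187580), where no pattern matched.
Ubd: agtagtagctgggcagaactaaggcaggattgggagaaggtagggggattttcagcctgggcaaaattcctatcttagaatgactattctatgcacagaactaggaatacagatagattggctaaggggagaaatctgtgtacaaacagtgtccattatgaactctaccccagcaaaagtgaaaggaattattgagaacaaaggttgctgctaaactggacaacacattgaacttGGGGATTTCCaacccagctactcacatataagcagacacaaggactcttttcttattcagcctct
Psmb8: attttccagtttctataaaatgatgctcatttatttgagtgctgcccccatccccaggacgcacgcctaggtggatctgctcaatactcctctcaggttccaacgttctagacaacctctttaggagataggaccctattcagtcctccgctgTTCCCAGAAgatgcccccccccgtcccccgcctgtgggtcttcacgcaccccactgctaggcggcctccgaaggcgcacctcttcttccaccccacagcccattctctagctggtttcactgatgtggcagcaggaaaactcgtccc
Psmb9: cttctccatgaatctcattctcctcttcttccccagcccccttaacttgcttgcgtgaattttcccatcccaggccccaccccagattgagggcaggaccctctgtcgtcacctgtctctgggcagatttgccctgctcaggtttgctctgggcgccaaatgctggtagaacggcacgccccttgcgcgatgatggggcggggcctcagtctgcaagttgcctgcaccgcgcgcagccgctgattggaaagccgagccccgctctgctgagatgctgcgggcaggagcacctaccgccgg

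The Psmb9 window shares 275 bases with that of Tap1, since the starts of these divergent genes are only 225 bases apart. Psme1 held the only other match, to the GAAA pattern. A match is a description of the letters and not evidence of a bound factor. Psmb9, Tap1, Psmb8 and Tap2 lie side by side on chromosome 17 (34182030-34187330, 34187556-34197225, 34198195-34201454 and 34204479-34216321), Tapbp lies proximal to them (33919478-33929290) and Ubd distal (37193892-37196101). Psme1 (55578494-55581527) and Psme2 (55587440-55591101) are neighbours on chromosome 14, and Nlrc5 (94434335-94527272) and Psmb10 (105935728-105938392) lie on chromosome 8. RefSeq has Emc9 overlapping Psme1, Gm19412 overlapping Tapbp and 3 entries overlapping Nlrc5, and whether strand was used in counting is not given, so reads of those genes could have been shared.

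Per length of transcript, the PA28 genes and Psmb10 were the most abundant of the 10 and Nlrc5 the least. The mean over the 23 libraries was 476 FPKM for Psme2, 322 for Psme1, 317 for Psmb10, 135 for Psmb8, 97.0 for Tapbp, 59.5 for Tap2, 46.7 for Tap1, 44.2 for Psmb9, 17.6 for Ubd and 5.12 for Nlrc5. Ubd had the widest range of the 10, with the highest library at 10.2 times the lowest, followed by Psmb9 at 6.90 times, and Tapbp had the narrowest at 1.33 times.

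Ubd was low in Sa mice and higher, without overlap, in 5 of the 6 FMT groups. In set 1 the Sa libraries held 5.23 and 3.73 FPKM, Con-FMT 22.57, 12.56 and 18.55, A10-FMT 18.57, 26.36 and 35.57, and A100-FMT 33.23, 18.84 and 11.81. All 9 FMT libraries of set 1 lay above both Sa libraries, and the group means were 3.99, 5.99 and 4.75 times the Sa mean. In set 2 the Sa libraries held 9.88, 10.39 and 10.44 FPKM, Con-FMT 25.45, 38.15 and 23.94, A10-FMT 10.46, 13.05 and 9.04, and A100-FMT 10.9, 22.24 and 13.58. Here Con-FMT was 2.85 times and A100-FMT 1.52 times the Sa mean with no overlap, whereas A10-FMT, at 1.06 times, had 1 library below every Sa library and 1 beside the highest of them (10.46 against 10.44 FPKM). Ubd after A10-FMT in set 2 was therefore close to Sa, so the rise for which it was picked did not extend to this group.

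**Figure D1:**
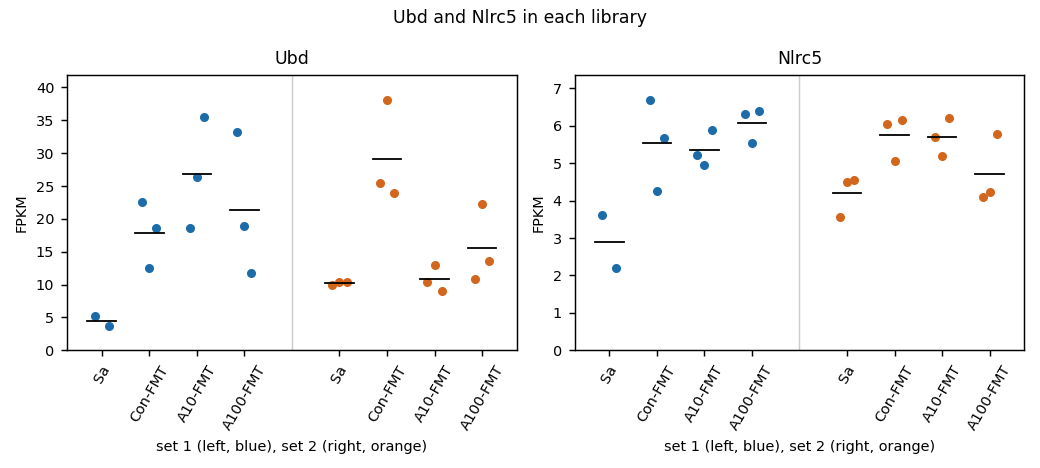
FPKM of Ubd (left) and Nlrc5 (right) in each library by group, with set 1 in blue, set 2 in orange, points for libraries and bars for group means. In set 1 every FMT library lies above the Sa libraries for both genes, and in set 2 the A10-FMT libraries of Ubd (9.04 to 13.05 FPKM) lie beside those of Sa.

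By group mean, Ubd was highest in Con-FMT of set 2 (29.2 ± 7.80 FPKM, SD, n = 3), then A10-FMT of set 1 (26.8 ± 8.51), A100-FMT of set 1 (21.3 ± 10.9), Con-FMT of set 1 (17.9 ± 5.04), A100-FMT of set 2 (15.6 ± 5.93), A10-FMT of set 2 (10.85 ± 2.03), Sa of set 2 (10.2 ± 0.310) and Sa of set 1 (4.48 ± 1.06, n = 2). Except for the last step, each neighbour in this order differed by less than the larger SD of the pair. In bulk tissue, fewer cells that express a gene and less RNA per cell cannot be told apart.

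The FMT groups were compared with each other by limma on log2(FPKM + 1), the scale of every log2 difference below. Benjamini-Hochberg adjustment covered all tested genes. The donors' material was pooled within a dose, so these tests compare recipients of different pools and cannot separate the dose from its pool. The Ubd response to the 10 mg/kg donors differed between the sets. In set 1 Ubd was 0.55 higher in A10-FMT than in Con-FMT (SE 0.32, adjusted p = 0.25), with overlapping libraries, and in set 2 it was 1.33 lower (log2 difference -1.33, SE 0.32, adjusted p = 0.069), with all 3 A10-FMT libraries below all 3 of Con-FMT. The difference between those differences was -1.88 (SE 0.45, adjusted p = 0.0076), and it passed the threshold of 0.05. Over the alternatives run, the replicate block among them, it ranged from -2.11 to -1.66, with adjusted p from 0.0038 to 0.027. Ubd was the only 1 of the 10 genes called in this comparison, in which 20.8% of all tested genes were called. Tapbp was not called there (-0.22, SE 0.09, adjusted p = 0.082). With the column that the description of Sa replicate 3 in set 1 names, Tapbp was called too (adjusted p = 0.017). With that column Ubd was also called in A10-FMT against Con-FMT of set 2 (-1.33, adjusted p = 0.049).

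The A100-FMT contrasts of Ubd had the same signs but were smaller. Ubd in A100-FMT was 0.16 above Con-FMT in set 1 (SE 0.32, adjusted p = 0.93) and lower in set 2 by a log2 difference of -0.89 (SE 0.32, adjusted p = 0.31), and the difference between the sets was -1.05 (SE 0.45, adjusted p = 0.34). Between A100-FMT and A10-FMT the log2 difference of Ubd was -0.39 in set 1 and 0.44 in set 2 (SE 0.32 each, adjusted p = 0.47 and 0.92).

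Some markers of lymphocytes and of enterocytes moved along with Ubd in the comparison of A10-FMT with Con-FMT between the sets. In that comparison 20.8% of all tested genes were called. The granzyme genes Gzma (-2.03, SE 0.62, adjusted p = 0.027) and Gzmb (-2.06, SE 0.56, adjusted p = 0.016) and the cytotoxic granule gene Nkg7 (-1.45, SE 0.49, adjusted p = 0.044) were the 3 called of the 6 T and NK cell markers tested. The sum of the 10 listed T and NK markers spanned 74.0 to 217 FPKM in Con-FMT and 40.9 to 48.9 FPKM in A10-FMT of set 2, against 57.1 to 131 FPKM and 67.6 to 125 FPKM in set 1. Among the 8 epithelial markers Fabp2 (-1.88, SE 0.27, adjusted p = 0.00033), Apoa4, Alpi and Vil1 were called lower and Cdh1 higher. Lct (-0.81, SE 0.31, adjusted p = 0.070), Sis (-0.10, SE 0.41, adjusted p = 0.88) and Epcam (-0.04, SE 0.06, adjusted p = 0.72) were not called. The sum of the epithelial list was 6621 to 7684 FPKM in A10-FMT of set 1 and 3490 to 4126 FPKM in A10-FMT of set 2, which compares the sets within A10-FMT alone. The part that either cell population had in the Ubd value was not tested.

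Across the other comparisons between FMT groups none of the 10 genes was called by limma. For A10-FMT against Con-FMT 16.7% of all tested genes were called in set 1, 0.379% in set 2 and 0% with the sets combined. An unadjusted p under 0.05 was held by 0, 2 and 0 of the 10 genes and by 3605, 1348 and 697 of all 11337. For A100-FMT against Con-FMT the shares of all genes called were 0.406%, 0% and 0.123%. An unadjusted p under 0.05 was held by 0, 3 and 2 of the 10 genes and by 1282, 1270 and 1097 of all genes. For A100-FMT against A10-FMT the shares called were 5.66%, 0.00882% and 0.132%. The unadjusted level was reached by 1 of the 10 each time and by 2624, 808 and 1159 of all genes. The differences between the sets of these last 2 contrasts were called for 0% and 3.5% of all genes. An unadjusted p under 0.05 was held by 1 and 0 of the 10 and by 1483 and 2126 of all genes.

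**Figure D2:**
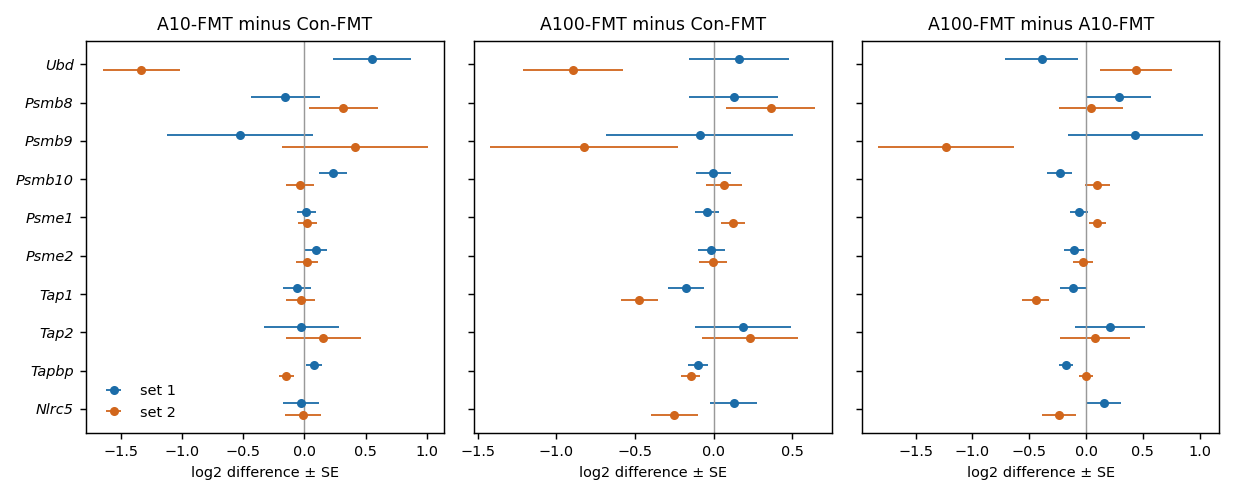
Log2 difference (log2(FPKM + 1), with SE from limma) of each of the 10 genes between FMT groups, set 1 in blue and set 2 in orange. Ubd in A10-FMT minus Con-FMT lies at 0.55 in set 1 and -1.33 in set 2, while the bars of Psmb9 are the longest of the 10 and those of Tapbp the shortest.

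Against Sa the 10 genes were described without a test. Over both sets, Ubd was higher by a log2 difference of 1.58 (Con-FMT), 1.19 (A10-FMT) and 1.21 (A100-FMT) (SE 0.24 each), and Nlrc5 by 0.56, 0.55 and 0.50 (SE 0.11 each). The other 8 genes lay between -0.54 (Psmb9 in A100-FMT, SE 0.45) and 0.18 (Tap2 in A100-FMT, SE 0.23). The median of the 10 differences over both sets was -0.04 (Con-FMT), 0.04 (A10-FMT) and -0.02 (A100-FMT), beside 0.02, 0.01 and 0.04 for all tested genes. The 3 FMT groups share their Sa libraries.

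**Figure D3:**
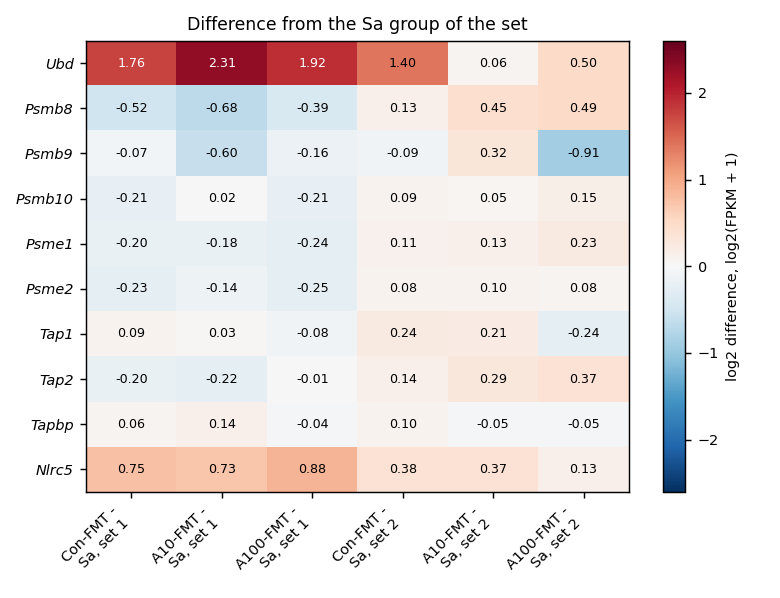
Log2 difference of each of the 10 genes from the Sa group of its set, on log2(FPKM + 1), as colours and printed values for the 3 FMT groups of set 1 (left) and set 2 (right). Ubd (0.06 to 2.31) and Nlrc5 (0.13 to 0.88) are above 0 in all 6 columns and the other 8 genes lie between -0.91 and 0.49.

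Without replicate 3 of Sa in set 1, Ubd of set 1 was higher than in Sa by 1.56 (Con-FMT), 2.11 (A10-FMT) and 1.72 (A100-FMT) rather than 1.76, 2.31 and 1.92. With the column that this sample's description names, in which Ubd has 8.43 FPKM, the differences were 1.26, 1.81 and 1.42. The Nlrc5 differences of 0.75, 0.73 and 0.88 in set 1 became 0.49, 0.46 and 0.61 without the library and 0.42, 0.40 and 0.55 with the other column. Without replicate 1 of Sa in set 1, which leaves that library alone in its group, the differences in set 1 were larger, at 1.96, 2.51 and 2.12 for Ubd and 1.02, 0.99 and 1.15 for Nlrc5. The sign stayed the same in each of these cases.

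Nlrc5, the class I transactivator, was higher than in Sa in all FMT groups of set 1 and, without overlap, in 2 of the 3 of set 2. In set 1 Sa held 3.62 and 2.19 FPKM, Con-FMT 6.7, 4.26 and 5.68, A10-FMT 5.23, 4.96 and 5.89, and A100-FMT 6.32, 5.54 and 6.39, so all 9 FMT libraries were above both Sa libraries. In set 2 Sa held 3.57, 4.49 and 4.55 FPKM, Con-FMT 6.04, 5.05 and 6.16, and A10-FMT 5.69, 5.2 and 6.2. These did not overlap with Sa, whereas 2 of the A100-FMT libraries did (4.1, 4.23 and 5.78). Between the FMT groups no contrast of Nlrc5 was called. At about 5 FPKM the added 1 makes its log2 differences smaller than the ratios of the FPKM values, which were 1.12 to 2.09 times the Sa mean.

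The immunoproteasome subunit Psmb8 was uneven in set 1 and, in set 2, above Sa in 2 of the 3 FMT groups. In set 1 it was 85.13, 170.71 and 117.88 FPKM in Con-FMT and 78.79, 111.17 and 140.63 FPKM in A10-FMT, and the 3 group means were 0.690, 0.610 and 0.750 times that of Sa, whose libraries held 126.08 FPKM and, in replicate 3, 235.1 FPKM. Without replicate 3 of Sa the order was mixed, with means of 125 FPKM (Con-FMT) and 110.2 FPKM (A10-FMT) below the other Sa library and 135 FPKM (A100-FMT) above it. In set 2 all 3 libraries of A10-FMT (135.73 to 168.04 FPKM) and of A100-FMT (131.12 to 171.94 FPKM) lay above those of Sa (100.99 to 118.41 FPKM), at 1.37 and 1.42 times the Sa mean, while Con-FMT (97.05 to 159.95 FPKM) overlapped with Sa at 1.11 times. Psmb9 was still more uneven, with 71.92, 27.48 and 41.83 FPKM in Con-FMT of set 1, 12.3, 55.45 and 38.84 in A10-FMT of set 1, and 39.11, 84.91 and 21.13 in Con-FMT of set 2. Low and high mice occurred in nearly every group, and only in A100-FMT of set 2 were all 3 libraries under 31 FPKM (23.08, 16.87 and 30.98). Psmb10 stayed between 268.86 and 427.18 FPKM, with its highest value in replicate 3 of Sa in set 1. In A10-FMT of set 1 Psmb10 held 338.2, 371.44 and 343.01 FPKM, above the 299.53, 286.88 and 309.25 FPKM of Con-FMT. The log2 difference of 0.23 was not called with all libraries, but it was called without replicate 3 of Sa in set 1 (SE 0.08, adjusted p = 0.028).

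**Figure D4:**
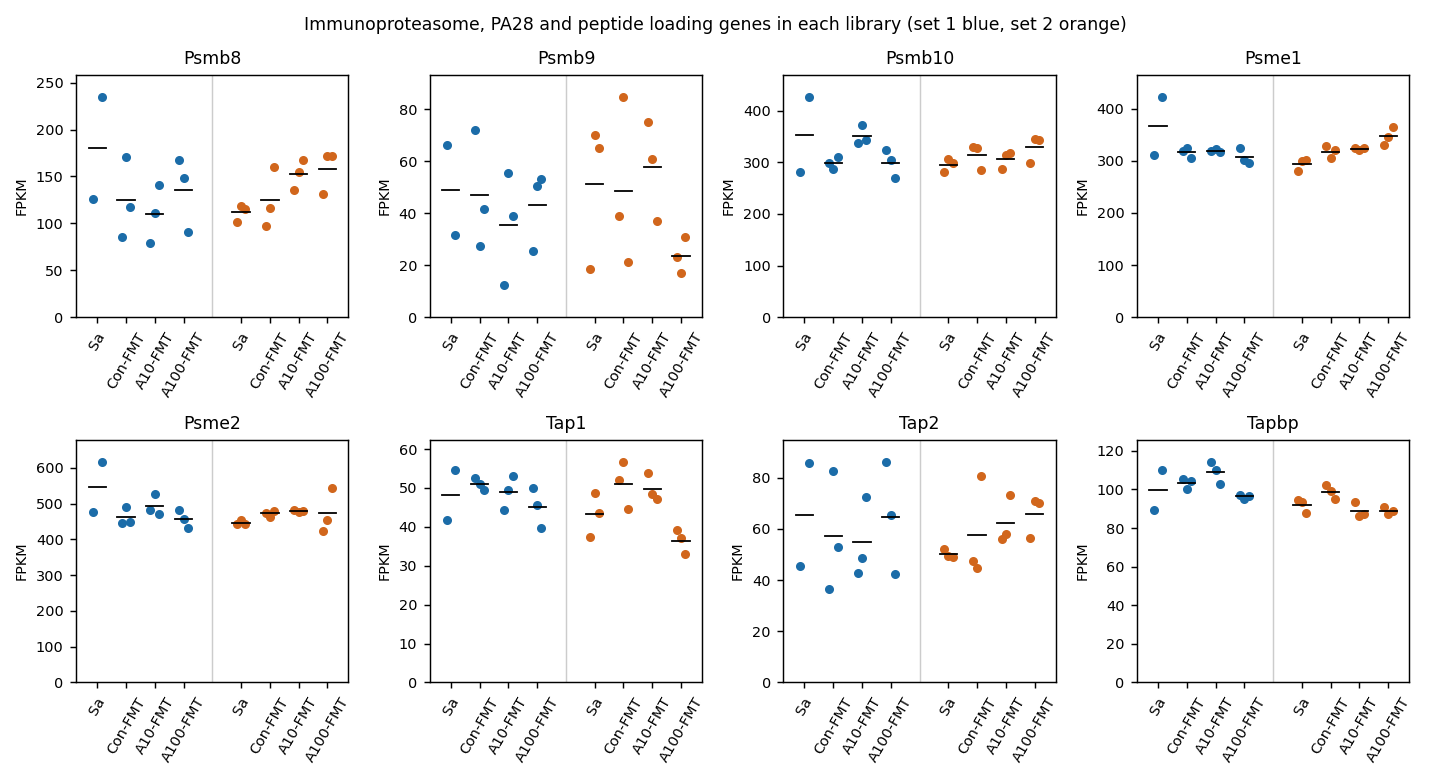
FPKM of the 8 other genes in each library by group, with set 1 in blue, set 2 in orange, points for libraries and bars for group means. Psmb8, Psmb9 and Tap2 spread widely between mice of a group, while Psme1, Psme2, Psmb10 and Tapbp spread less, with replicate 3 of Sa in set 1 the highest library for Psme1, Psme2 and Psmb10.

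Set against the constitutive subunit that each replaces, the ratio of Psmb8 to Psmb5 was 1.18 to 2.71 over the 23 libraries with a median of 1.86, and that of Psmb10 to Psmb7 was 1.62 to 2.14 with a median of 1.90. The ratio of Psmb9 to Psmb6 ran from 0.993 to 9.21 with a median of 3.61. Psmb6 was listed at only 12.9 FPKM on average, far below the 132 to 296 FPKM of the 11 other core subunits listed and below Psmb5 (70.4) and Psmb7 (169), so the level of that last ratio depends on an entry that stands apart. In set 1 the median Psmb10 to Psmb7 ratio was 2.11 in A10-FMT against 1.79 in Con-FMT and 1.76 in A100-FMT, and in set 2 it was 1.75 against 1.90 and 1.90.

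The PA28 genes varied little between mice. Outside replicate 3 of Sa in set 1 (422.83 FPKM), Psme1 lay between 280.97 and 364.17 FPKM, and its paralogous partner Psme2 lay between 424.13 and 544.26 FPKM outside that library's 616.94. In set 1 the group means of Psme1 were 0.835 to 0.870 times that of Sa with replicate 3, and without it they (307 to 319 FPKM) lay on both sides of the other Sa library (311.33 FPKM). In set 2 all 9 FMT libraries (304.91 to 364.17 FPKM) lay above the 3 of Sa (280.97 to 302.25 FPKM), with group means of 1.08 to 1.18 times the Sa mean. For Psme2 the ratios to Sa were 0.835 to 0.901 in set 1, where the Sa mean again includes replicate 3, and 1.06 to 1.07 in set 2, where A100-FMT was the most uneven group (424.13 to 544.26 FPKM). Psme2b, a near copy of Psme2, is a separate entry, and how reads shared by the 2 were counted is not given. Psme1 had 329.88, 345.12 and 364.17 FPKM in A100-FMT of set 2 and 324.07, 300.81 and 295.11 in A100-FMT of set 1, a log2 difference of 0.18 (SE 0.08, adjusted p = 0.31) that was called without replicate 3 of Sa in set 1 (adjusted p = 0.038).

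Of the transporter genes, Tap1 was lowest in A100-FMT of set 2, at 39.12, 37.15 and 33 FPKM, below all libraries of Con-FMT (52, 56.7 and 44.54) and of A10-FMT (53.91, 48.45 and 47.15) of that set. The log2 difference from Con-FMT was -0.47 (SE 0.12, adjusted p = 0.17), and -0.32 over both sets (SE 0.08, adjusted p = 0.15). Neither was called, though both were without replicate 3 of Sa in set 1 (adjusted p = 0.033 and 0.040). Over all 23 libraries Tapbp was the steadiest gene of the 10, at 86.18 to 114.28 FPKM. Tap2 ran from 36.43 to 86.19 FPKM, with both ends in set 1, and low and high mice shared groups, as in Con-FMT of set 1 (36.43, 82.61 and 53.12). In set 1 the FMT means of Tap2 were 0.835 to 0.985 times that of Sa (45.68 FPKM and, in replicate 3, 85.59), and without replicate 3 all 3 means (54.8 to 64.6 FPKM) lay above Sa. In set 2 all 3 libraries of A10-FMT (55.95 to 73.07 FPKM) and of A100-FMT (56.52 to 70.76 FPKM) lay above those of Sa (48.92 to 52.35 FPKM), at 1.24 and 1.31 times the Sa mean, whereas Con-FMT had 2 libraries below every Sa library and 1 above (44.64 to 80.8 FPKM).

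Set 2 was also compared with set 1 within each treatment. In A10-FMT, Ubd was lower in set 2 (9.04 to 13.05 FPKM) than in set 1 (18.57 to 35.57 FPKM), a log2 difference of -1.20 (SE 0.32, adjusted p = 0.0092), and Tapbp was lower as well (86.18 to 93.35 against 102.58 to 114.28 FPKM, -0.29, SE 0.06, adjusted p = 0.0027). These were 2 of the 10 genes, where 30.4% of all tested genes were called. The Ubd call was lost without replicate 3 of A10-FMT in set 1 (-0.98, adjusted p = 0.056). In Con-FMT none of the 10 was called (0.00882% of all genes), with 1 at an unadjusted p under 0.05. In A100-FMT none was called (0% of all genes), with 3 at that unadjusted level. Of all 11337 genes, 674 in Con-FMT and 1641 in A100-FMT were at that level.

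In Sa, 4 of the 10 were called between the sets, where 38.1% of all tested genes were. Ubd (1.05, SE 0.36) and Nlrc5 (0.43, SE 0.17, adjusted p = 0.049) were higher in set 2. Psme1 (-0.30, SE 0.09, adjusted p = 0.016) and Psme2 (-0.28, SE 0.10, adjusted p = 0.034) were lower. The Sa values of Ubd helped to choose the genes, so its difference is a description and its call no test. Without replicate 3 of Sa in set 1 none of the 4 was called, and the differences were 0.85, 0.17, -0.08 and -0.09 (adjusted p = 0.46 to 0.73).

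The genes split by how far mice of a group differed. The pooled SD within groups, on log2(FPKM + 1), was 0.80 for Psmb9, 0.42 for Ubd, 0.41 for Tap2 and 0.38 for Psmb8. These were wider than 98.6%, 96.3%, 96.1% and 95.4% of the tested genes, and wider than 99.3%, 97.7%, 97.6% and 95.9% of the genes with a mean within 2-fold of their own. It was 0.19 for Nlrc5, 0.15 for Tap1, 0.14 for Psmb10, 0.11 for Psme2, 0.09 for Psme1 and 0.07 for Tapbp, the last wider than only 11.1% of the tested genes. Without Sa of set 1, Psme1 and Tapbp had about the same SD (0.051 and 0.052). Psmb9 and Tap1, whose starts are 225 bases apart, thus had spreads of 0.80 and 0.15.

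The uneven genes did not vary together as a block. After the group means were taken out, Psmb8 and Tap2 went together across the 23 libraries at r = 0.95 (0.98 in set 1, 0.84 in set 2, and 0.93 over the 21 libraries without Sa of set 1). Psmb9 went against Tap2 at r = -0.50 and had r = -0.24 with Psmb8 and 0.34 with Tap1. Psmb10, Psme1 and Psme2 also went together, with r = 0.81 for Psmb10 and Psme1, 0.83 for Psme1 and Psme2 and 0.70 for Psmb10 and Psme2. These became 0.47, 0.74 and 0.44 without Sa of set 1. The values with Psmb10 were then no higher than those of pairs such as Psmb8 and Psme2 (0.48), Psmb9 and Tap1 (0.52) and Ubd and Psmb10 (0.64). These values are descriptions across mice: the points share libraries, depth and tissue composition.

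Several of the genes most like Psmb8, Psmb9 and Tap2 lay near them on chromosome 17, an observation made after their values were seen, though others lay on other chromosomes. For Tap2 the highest values belonged to Psmb8, to Ring1, a Polycomb gene (34020792-34024680, r = 0.92), and to Rxrb, a retinoid X receptor gene (34031812-34038403, r = 0.90). The lowest belonged to B3galt4, a galactosyltransferase gene (33949912-33951488, r = -0.94, 0 to 4.96 FPKM), Vps52 (33955779-33967038, r = -0.90) and Rab11b (33742484-33760486, r = -0.87, 2.11 to 39.56 FPKM). The next 2 at each end for Tap2 lay on other chromosomes. For Psmb8 the highest were Tap2, Ring1 (r = 0.88), Sema4b on chromosome 7 (0.85), Chchd2 on chromosome 5 (0.85) and H2-Ab1, a class II chain of the region (34263227-34269418, 0.85). Of its 5 lowest only B3galt4 (r = -0.83) lay within 1 Mb, B3glct, Pbx3 and Lin9 lay on chromosomes 5, 2 and 1, and Scaf8 lay 31.1 Mb away on chromosome 17. For Psmb9 the highest were H2-Ea, a class II chain (34341952-34344645, r = 0.93, 0.76 to 86.3 FPKM), Cyp4f17 (32506192-32530158, r = 0.90) and Rps28, a ribosomal protein gene (33823036-33824562, r = 0.88, 1.37 to 508 FPKM), and its 5 lowest all lay on other chromosomes. Within 1 Mb of Tap2, 9 of 65 tested genes (13.8%) had an r of at least 0.7 in size with it, against 0.910% of the 10544 genes elsewhere. For Psmb8 the shares were 17.2% and 2.05%, for Psmb9 7.81% and 0.0853%, and for Tap1, in the same region, 3.13% and 0.986%. Without Sa of set 1 they were 10.8% and 0.493% for Tap2 and 6.25% and 0.218% for Psmb9.

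**Figure D5:**
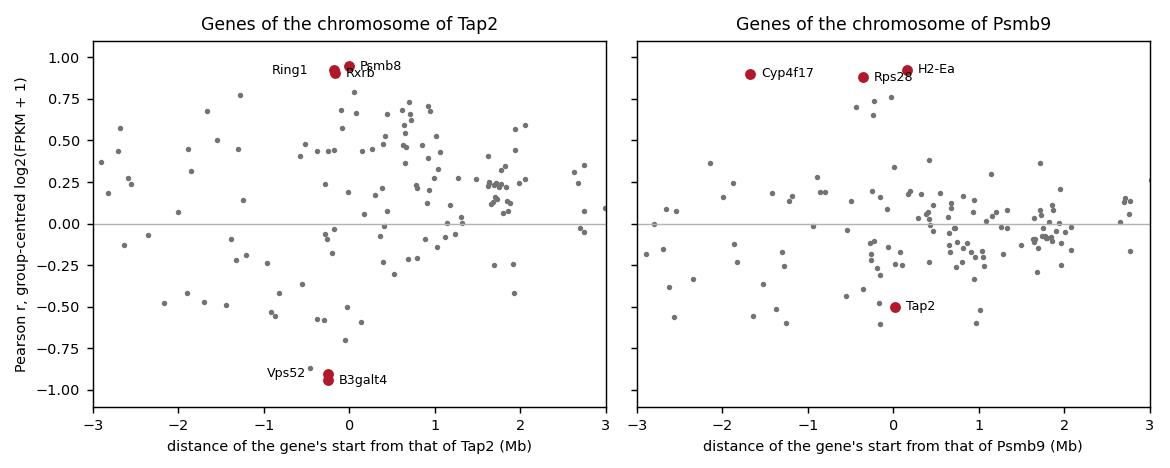
Pearson r of each tested gene of the chromosome with Tap2 (left) and Psmb9 (right) across 23 libraries after taking out group means, against the distance in Mb of the gene's start from that of Tap2 or Psmb9, with named genes in red. Psmb8 (r = 0.95) and B3galt4 (r = -0.94) mark the ends for Tap2, and H2-Ea (r = 0.93) the top for Psmb9, all within 1 Mb.

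Within groups, no association of the other 9 genes with Ubd was called: limma with Ubd as a covariate called none of them and 0% of the 11336 other tested genes, of which 303 had an unadjusted p under 0.05, none of them among the 9. The largest of the 9 slopes relative to its error was that of Tap1 (0.14 log2 units per log2 unit of Ubd, SE 0.08). As a description, r with Ubd after taking out group means was 0.27 for Psmb10 and 0.41 for Tap1. Without Sa of set 1 it was 0.64 and 0.56, and the others of the 9 lay between -0.20 (Tapbp) and 0.31 (Psmb8). Across all 23 libraries, group differences included, the levels most like Ubd were those of Phf11c (Pearson r = 0.85), Il18bp, the secreted inhibitor of interleukin 18 (0.84), Ly6a, an interferon-inducible surface protein (0.84), Xkr8, a phospholipid scramblase (0.82), and Gm20594 (0.81). Nlrc5 came 181st of 11336 with r = 0.65, and the other 8 genes lay between -0.27 and 0.28. After taking out group means the 5 most like Ubd were Tmem237 (0.75), Dcst1 (0.73), Ly6a (0.69), Cndp1 (0.69) and Slc25a20 (0.67), and Nlrc5 fell to 0.19. Ly6a was the only gene in both lists of 5.

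Few of the listed partners of these genes were called between FMT groups. Of all tested genes, 16.7% were called for A10-FMT against Con-FMT in set 1 and 20.8% for its difference between the sets. The other comparisons between FMT groups had 0% to 5.66%. Of the 3 genes of FAT10 conjugation (Ube2z at 35.3 FPKM, Nub1 at 21.6 and Uba6 at 4.45), none was called in any comparison between FMT groups. Of the 11 other core subunits and the 18 subunits of the 19S regulator, 0 were called between FMT groups. Among 6 peptide loading partners, B2m, the class I light chain (1092 to 1651 FPKM), was called for the difference between sets of A10-FMT minus Con-FMT (-0.52, SE 0.11, adjusted p = 0.0046), in the same direction as Ubd. Of 8 activator and assembly genes, Pomp and Psme3 were called in A10-FMT against Con-FMT in set 1, 1 in each direction (0.19, SE 0.06, adjusted p = 0.028 for Pomp, which assists proteasome assembly, and -0.28, SE 0.05, adjusted p = 0.0020 for Psme3, the PA28 gamma activator). Psme3 was also called for the difference between sets of that contrast, in the direction opposite to Ubd (0.35, SE 0.07, adjusted p = 0.0031). Of the 7 factors that act with Nlrc5 at class I promoters, Rfx5 was called lower in A10-FMT than in Con-FMT of set 1 and none in any other contrast between FMT groups.

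Between the sets, more of the partners were called, mostly in Sa. Of all tested genes, 38.1% were called in Sa. There the 3 constitutive catalytic subunits were lower in set 2, with log2 differences of -0.52 for Psmb5 (SE 0.12, adjusted p = 0.0099), -0.82 for Psmb6 (SE 0.30, adjusted p = 0.043) and -0.27 for Psmb7 (SE 0.08, adjusted p = 0.016). So were 6 of the 11 other core subunits, among them Psmb3 (-0.43, SE 0.11, adjusted p = 0.010) and Psmb4 (-0.34, SE 0.10, adjusted p = 0.018). Of the 18 subunits of the 19S regulator 8 were called lower and 1 higher, of the activator and assembly genes 2 lower and 1 higher, and of the peptide loading partners 1 lower and 3 higher. Nub1 (0.29, SE 0.07, adjusted p = 0.011), Uba6 (0.58, SE 0.21, adjusted p = 0.036) and Creb1, which acts with Nlrc5, were higher. Without replicate 3 of Sa in set 1 none of the genes of these lists was called in Sa. In A10-FMT, where 30.4% of all tested genes were called, Psmd7, Psme3 and Rfx5 were called higher in set 2, and B2m and Rfxank lower.

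Among the listed genes of interferon and TNF signalling, Stat2, a transcription factor downstream of interferon receptors, was above Sa over both sets (SE 0.08 each, no test), by 0.52 for Con-FMT, by 0.39 for A10-FMT and by 0.42 for A100-FMT. In the same order, the differences were 0.73, 0.59 and 0.79 in set 1 (SE 0.12 each), where Sa includes replicate 3. In set 2 they were 0.30, 0.19 and 0.05 (SE 0.11 each). Not all listed genes were above Sa: Rela had -0.22, -0.24 and -0.24 in set 1 and 0.12, 0.17 and 0.09 in set 2. For A10-FMT against Con-FMT, 16.7% of all tested genes were called in set 1 and 20.8% for the difference between sets. For A100-FMT against A10-FMT in set 1 the share was 5.66%. Beside these shares, a few calls among the 19 listed genes tested are no result about the list. Nfkb1 was lower in A10-FMT than in Con-FMT of set 1. It was higher in set 2 relative to set 1 in that contrast (0.28, SE 0.09, adjusted p = 0.035). Irf9 was higher in A100-FMT than in A10-FMT of set 1. Ifnlr1, the interferon lambda receptor, was lower in the difference between sets of A10-FMT minus Con-FMT (-0.38, SE 0.12, adjusted p = 0.027). The ligand genes were scarcely measured: Ifng was listed at 0 to 0.13 FPKM, Ifnl2 at 0 to 0.29 and Ifnl3 at 0 to 0.53, and Tnf averaged 1.08 FPKM.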

How the data were processed

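RNA of the small intestine of 23 ICR mice was sequenced by the authors. The deposited table holds 1 column per library of FPKM, which the authors computed from gene read numbers. Build mm10 is named in the submitters' processing notes, and the aligner, annotation and strand setting are not given in the sources used here. Of 24 value columns 0 were unused, since the second column offered for a Sa mouse served as an alternative. Too few genes (17) had values near those of 1 read to recover relative depth. Groups came from the labels. limma 3.58.1 in R 4.3.3 was fitted to log2(FPKM + 1) of genes that averaged 1 FPKM or more, with 1 mean per group, all 8 groups, an intensity trend and Benjamini-Hochberg adjustment (threshold 0.05). Nothing says that mice were housed apart, so p-values measure the spread between these mice. The association with Ubd added its level as a covariate. Genes named were the 10 members, members of fixed lists that were most abundant or called, and the 5 most like Ubd on each scale. Other named genes were chosen after their values were seen. The members and lists were chosen with earlier results of these data known. Replicate numbers did not pair the mice (see the closing section). Alternatives were the pseudocount (0.1), no filter, trimmed-mean scaling (30% from each side), quantile normalization, a replicate block, array weights, fits on the groups compared, the other column, and each library left out. Where 1 library of a group was left, its spread was taken from the other groups. The fits were tested on simulated data. The authors' own test was not repeated, as it needs read numbers. Gene positions and promoters came from RefSeq tables of GRCm38.p6, matched by symbol for 8 of 10 promoters. The work used Python with NumPy, pandas, SciPy and Matplotlib. The result of 1 listed gene is not reported here.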

Additional observations from a re-analysis of the deposited data

Results flagged for a closer look

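The difference of Ubd between A10-FMT and Con-FMT itself differed between the sets by -1.88 on the log2(FPKM + 1) scale (SE 0.45, adjusted p = 0.0076, limma). In that comparison 20.8% of all tested genes were called. The difference was 0.55 in set 1 (adjusted p = 0.25) and -1.33 in set 2 (adjusted p = 0.069), and neither was called. The 3 A10-FMT mice of set 2 held 9.04 to 13.05 FPKM and those of set 1 18.57 to 35.57 FPKM. Groups of 2 or 3 mice were too small to look for outlying libraries within a group.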

How the results depend on the processing

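Counts in this section are members called out of 10 at an adjusted p under 0.05. The share of all tested genes called under each alternative is not given, so these counts are no result about the 10 genes. In the main fit that share was 38.1% in Sa and 30.4% in A10-FMT between sets, and 20.8% for the A10-FMT difference. In the other comparisons it was 0% to 16.7%. Of 18 counts, among them that of all genes associated with Ubd, 8 were unchanged under every alternative run. Direction was followed only for Ubd in A10-FMT minus Con-FMT and for the members called, and none of these reversed. With array weights the count was 1 for A10-FMT minus Con-FMT in set 1, 2 in set 2 and 2 for the difference between sets. It was 1 for A100-FMT minus Con-FMT in set 2 and over both sets, 1 for A100-FMT minus A10-FMT in set 1 and for the difference between sets, 2 between the sets in A100-FMT and 0 in Sa. With the column that the description names, the counts were 1, 1 and 2 for A10-FMT minus Con-FMT (set 1, set 2, difference), 1 and 1 for A100-FMT minus Con-FMT (set 2, both sets), 2 and 1 for A100-FMT minus A10-FMT (set 1, difference), 1 between sets in A100-FMT and 0 in Sa. Against Sa no calls are counted, since those comparisons helped to choose the genes. With that column the differences from Sa in set 1 became 1.26, 1.81 and 1.42 for Ubd and 0.42, 0.40 and 0.55 for Nlrc5 (Con-FMT, A10-FMT, A100-FMT). The fit on the groups compared gave 1 and 2 for A10-FMT minus Con-FMT (set 1, difference) and 0 in Sa between sets. Quantile normalization gave 0 and no filter 1 in Sa between sets, and trimmed-mean scaling gave 2 for the A10-FMT difference.

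Leaving out 1 library gave 0 to 1 members for A10-FMT minus Con-FMT in each set and 1 to 2 for its difference, 0 to 1 for A100-FMT minus Con-FMT in set 2 and over both sets, 0 to 2 for A100-FMT minus A10-FMT in set 1, and, between sets, 0 to 7 in Sa, 1 to 3 in A10-FMT and 0 to 1 in A100-FMT. Against Sa in set 1, leaving out 1 Sa library gave Nlrc5 differences of 0.49 to 1.02 (Con-FMT), 0.46 to 0.99 (A10-FMT) and 0.61 to 1.15 (A100-FMT). The highest values against Sa and the highest count in Sa came without replicate 1 of Sa in set 1, which leaves the library that stands apart alone in its group.

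Same-numbered mice of a set correlated at a median r of 0.0019 (33 pairs) in their deviations from group means, against -0.0037 for other pairs (66), so the numbers gave no pairing. With the replicate block none of the 10 was called between FMT groups within a set or over both, and Ubd in A10-FMT minus Con-FMT of set 2 kept -1.33 with adjusted p = 0.094. Its difference between sets was -1.88 with adjusted p = 0.0090 and the only 1 of the 10 called. Comparisons of set 2 with set 1 within a treatment could not be fitted, because the block lies within a set.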
